A study of Homo sapiens with 9 samples.

Results

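Neurotensin (NTS) and secretogranin II (SCG2) are precursors of secreted peptides whose transcript signals differed from the control in opposite directions when MED23 or ELK1 was knocked down in A549 cells, a human lung adenocarcinoma line. They were chosen by their measured log2 fold changes in these knockdowns. Both are among 7 genes of 12616 tested that passed a limma adjusted p under 0.05 in each knockdown, lower for MED23 and higher for ELK1. Since they were chosen from these same values, passing that threshold is no independent test of them. They are 2 of 19775 genes that have a probe set of their own on the array, and each has 1 such probe set, 206291_at for NTS and 204035_at for SCG2. Both passed the filter on dim signals. Their values in these comparisons are therefore given as a description, with no p-value.

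The series holds 9 Affymetrix human genome arrays in 3 groups of 3. The 3 si-Med23 arrays carry oligos A, B and C against MED23, a tail subunit of Mediator, the bridge between transcription factors and RNA polymerase II. The 3 si-Elk1 arrays carry oligos A, B and C against ELK1, an ETS family transcription factor that is phosphorylated by ERK and can contact Mediator through MED23. The 3 si-Ctrl arrays carry a control oligo. Each oligo of a knockdown is described as a cell line of its own, so the spread within si-Med23 or si-Elk1 includes differences between oligos. The labels do not say whether the 3 controls came from separate cultures, and p-values cover no more than the scatter among these 9 samples, part of which may be technical. All cells grew in serum-containing medium and none was treated before harvest. The comparisons ask which transcripts change when each factor is depleted.

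Neurotensin is a short peptide of brain and gut that acts through G protein-coupled receptors and is made by some lung, colon and pancreas tumours. Secretogranin II belongs to the granins, acidic proteins that pack peptide hormones into dense-core secretory granules, and it is itself cut into smaller peptides such as secretoneurin. Both precursors are sorted into granules, cleaved by prohormone convertases, trimmed and in part modified at their ends, and released by regulated exocytosis. In rat cells the NTS promoter responds to cyclic AMP, AP-1 and glucocorticoid signals, and the rodent SCG2 promoter holds a cyclic AMP response element (CRE).

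The sequence before the NTS start site is shown because both knocked-down proteins act at promoters. It spans chr12:85874045-85874294 on the plus strand of GRCh38.p14 (RefSeq) and is the 250 bases before the annotated start, with letter matches to CRE-related motifs in capitals.
NTS: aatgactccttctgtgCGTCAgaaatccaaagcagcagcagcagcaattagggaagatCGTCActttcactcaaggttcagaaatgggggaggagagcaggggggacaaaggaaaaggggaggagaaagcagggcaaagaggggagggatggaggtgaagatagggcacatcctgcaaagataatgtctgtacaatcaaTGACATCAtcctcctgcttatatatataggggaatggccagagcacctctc
Both strands were searched. The CRE core TGACG matched 2 times, on the minus strand at positions -234 to -230 and -192 to -188, and 21.2% of 35116 promoters of the same length hold it. The letters TGACATCA, a CRE-like string searched after the sequence had been seen, lie at -51 to -44, and 2.37% of promoters hold them. The full CRE (TGACGTCA, held by 1.65% of promoters), the AP-1 motif (TGANTCA, 6.57%) and the ETS string CCGGAA (14.5%) had no match in this window. Nor had TATAAA (10.7%), the E-box (CANNTG, 61.8%) or the serum response element (CArG box, 1.16%). The shorter ETS letters GGAA and the TATA-like letters TATATATA were not searched as motifs, and both do occur in the window. The lack of a TATAAA match therefore does not mean that a TATA box is absent. The full CRE contains the CRE core, so these motifs overlap. A match in letters is a description and not a measured binding site.

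Each knockdown was first checked on its target. MED23 had signals of 71.9 to 132.3 on si-Med23 arrays, 290 to 517.8 on si-Elk1 arrays and 529.3 to 615.9 on si-Ctrl arrays. MED23 fell in si-Med23, to 18.2% of the control (log2 fold change -2.46 ± 0.27 SE, limma adjusted p = 0.00184). ELK1 had signals of 745.1 to 1314.9 on si-Med23 arrays, 133.3 to 226.1 on si-Elk1 arrays and 627 to 783 on si-Ctrl arrays. It fell in si-Elk1, to 23.8% of the control on its brightest probe set (-2.07 ± 0.26 SE, limma adjusted p = 0.00684). The dimmer probe sets of ELK1 were also lower, by less, at -1.08 and -0.85. The one at -0.85 had a mean log2 of 3.98, under the filter on dim signals, so its value is uncertain. In the arrays of the other knockdown, MED23 differed from the control by -0.44 (adjusted p = 0.325) and ELK1 by 0.54 (adjusted p = 0.123). Median signals of the arrays ran from 64.9 to 88.2, and the trimmed mean was about 500 on each. A gene was called at a limma adjusted p under 0.05, which 5023 genes reached in si-Med23 and 537 in si-Elk1.

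Calls were common in these comparisons. In si-Med23 against si-Ctrl, 20.3% of the genes tested were called higher and 19.5% lower, and the groups did not overlap for 57.3%. In si-Elk1 against si-Ctrl, 3.07% were called higher and 1.19% lower, and the groups did not overlap for 36.3%. In si-Med23 against si-Elk1, 9.54% were called higher and 12.2% lower, and the groups did not overlap for 38.0%. NTS and SCG2 were chosen for their opposite directions in si-Med23 and si-Elk1, so nothing is read from their place among the calls. With arrays scaled instead on their poly-A spikes, 18 of the 12616 genes were called higher and 11880 lower in si-Med23. In si-Elk1 that scaling gave 95 and 4898. List counts under poly-A spike scaling below stand against these totals, so nothing particular to a list is read from them.

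NTS was the gene with the widest range of the pair. Its signal was 69.7, 43.5 and 68.8 on the si-Med23 arrays with oligos A, B and C. It was 5561.1, 7099.4 and 4796.9 on the si-Elk1 arrays with oligos A, B and C, and 516.4, 365 and 473 on the si-Ctrl arrays. All si-Med23 arrays lay below all controls and all si-Elk1 arrays above them, so no pair of groups overlapped. On the log2(value + 1) scale NTS averaged 5.91 ± 0.38 in si-Med23, 12.49 ± 0.29 in si-Elk1 and 8.81 ± 0.26 in si-Ctrl (SD, n = 3 each). The order of the levels was thus si-Med23, si-Ctrl, si-Elk1, and each step was wider than the spread within its neighbours. Because the cells were measured in bulk, fewer cells that express a gene and less of its RNA per cell cannot be told apart.

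In si-Med23, NTS was at 13.5% of the control, a log2 fold change of -2.89 ± 0.23 (SE) and 7.42-fold lower. Of 12616 genes ranked by fold change it was the 6th lowest, between LINC01676 at -3.05 and THAP6 at -2.68. On the plain signals the median of the si-Ctrl arrays was 6.88 times that of the si-Med23 arrays. The si-Med23 level was close to the filter on dim signals, set at a signal of 65.4 (log2 6.05), and 1 of the 3 arrays, that with oligo B, was under it. With signals raised to that level the fold change was -2.70.

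In si-Elk1, NTS stood 12.8-fold above the control (log2 fold change 3.68 ± 0.23 SE), the highest value of the 12616 genes, ahead of TNS1 at 3.48. The lowest si-Elk1 signal was 9.29 times the highest control signal. The median of the si-Elk1 signals was 11.8 times that of the controls. All 3 oligos against ELK1 gave this difference.

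**Figure D1:**
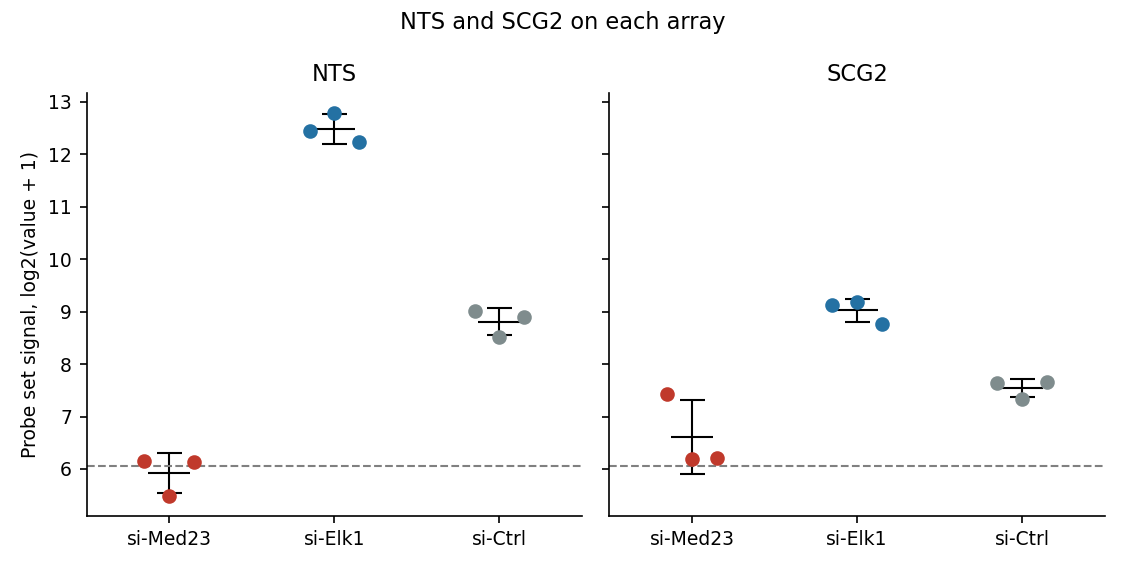
Signal of NTS and SCG2 on each array as log2(value + 1), by group. Points are arrays, bars are the mean and SD of 3 arrays, and the dashed line is the filter level at 6.05. NTS arrays of the 3 groups do not overlap, while the SCG2 array with oligo A against MED23 lies among the controls.

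SCG2 differed less and less evenly. Its signal was 170.4, 72.5 and 73.1 on the si-Med23 arrays with oligos A, B and C. It was 558.3, 578.1 and 433.8 on the si-Elk1 arrays, and 197.4, 161.4 and 201.9 on the si-Ctrl arrays. The si-Elk1 arrays lay above all others, whereas the si-Med23 array with oligo A lay within the control range and those with oligos B and C lay below it. The log2 means were 6.61 ± 0.70 in si-Med23, 9.02 ± 0.23 in si-Elk1 and 7.55 ± 0.18 in si-Ctrl (SD, n = 3 each). The order was the same as for NTS, but si-Med23 and si-Ctrl were not separated by their spread.

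In si-Med23, SCG2 was at 52.3% of the control (log2 fold change -0.94 ± 0.31 SE), with overlapping groups. Without the oligo A array the value was -1.34, without the oligo B array -0.73 and without the oligo C array -0.74, so the size depends on which oligo is counted. In si-Elk1, SCG2 was 2.78-fold above the control (1.48 ± 0.31 SE) with no overlap. It ranked 125th from the highest of 12616 genes, between SERPINA1 at 1.47 and SNHG28 at 1.48. For NTS, by contrast, the array with oligo A against MED23 lay beside that with oligo C, at 69.7 and 68.8.

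Values of NTS and SCG2 in si-Med23 set directly against si-Elk1 follow from their opposite differences from the control, for which they were chosen. NTS was 95.2-fold lower in si-Med23 than in si-Elk1 (log2 -6.57 ± 0.23 SE), the lowest value of all genes tested, and the next, LOC221946, stood at -3.48. SCG2 was 5.32-fold lower in si-Med23 than in si-Elk1 (-2.41 ± 0.31 SE), the 18th lowest, between FRMPD3 at -2.42 and UNC5D at -2.41. No si-Med23 array reached the lowest si-Elk1 array for either gene.

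**Figure D2:**
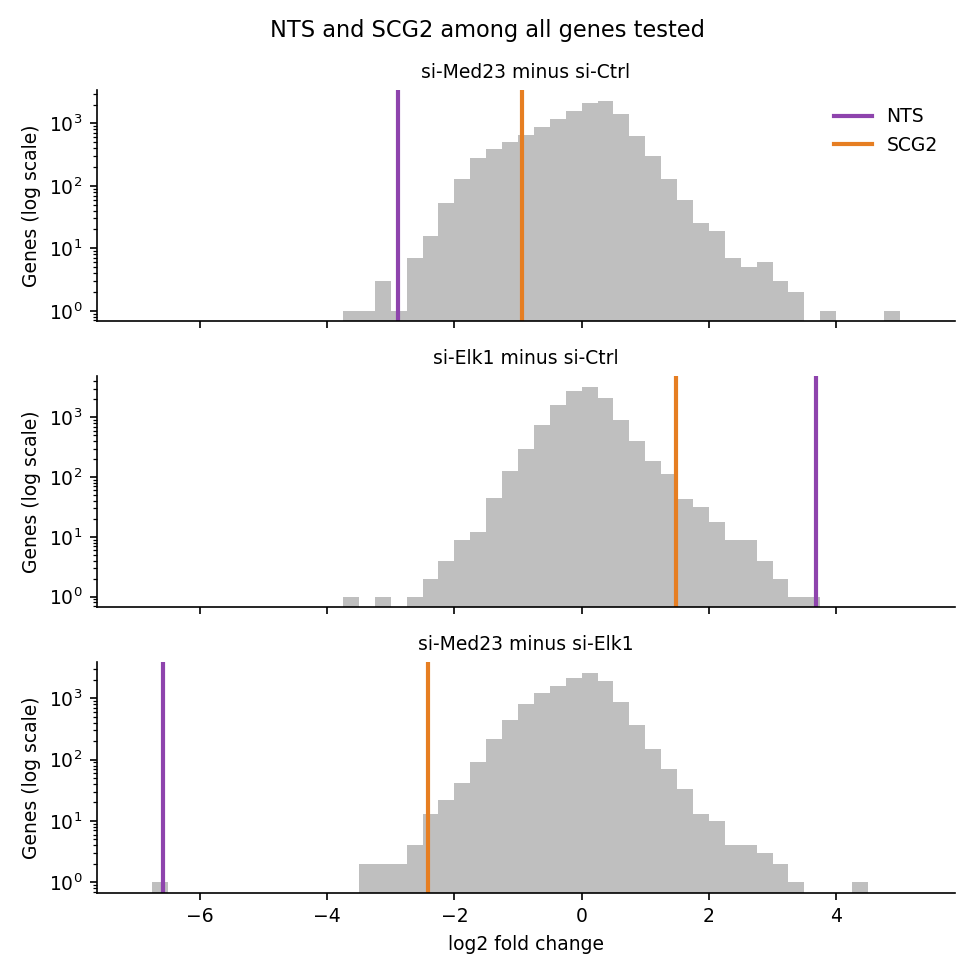
Number of genes (log scale) by log2 fold change for the 12616 genes tested, 1 panel for each comparison, with vertical lines at NTS and SCG2. NTS lies at -2.89, 3.68 and -6.57 in the 3 panels, near or at the edge of each distribution, and SCG2 at -0.94, 1.48 and -2.41.

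The 7 genes called lower in si-Med23 and higher in si-Elk1 include 5 others, named here after their values were seen. They are NAT16 (-0.83 in si-Med23 and 1.26 in si-Elk1), ANKRD20A12P (-0.56 and 0.85), ATP10B (-0.45 and 0.81), DIXDC1 (-0.59 and 0.57) and PLEKHG4 (-0.36 and 0.52). Another 7 genes were called the other way. Both knockdowns were compared with the same 3 controls, so a control that stands high or low moves both values together. NTS was the only one of the first 7 that differed by more than 1 log2 unit in si-Med23.

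No other granin tested was called lower in si-Med23. Of 7 listed, 5 were tested, and 1 rose and 0 fell in si-Med23 (limma, 1 at an unadjusted p under 0.05), though 0 rose and 3 fell with arrays scaled on their poly-A spikes. In si-Elk1 2 rose and 0 fell, or 1 and 0 with that scaling, and 1 was lower in si-Med23 than in si-Elk1. Their median log2 fold changes were 0.40, 0.54 and -0.14, beside 0.09, 0.05 and -0.03 over all genes tested. CHGB, secretogranin I, had log2 signals of 7.82, 7.67 and 8.17 in si-Med23, 9.54, 9.43 and 9.26 in si-Elk1, and 7.60, 8.26 and 7.74 in si-Ctrl. The si-Elk1 arrays were above all the others, while si-Med23 and si-Ctrl overlapped. CHGB rose in si-Elk1 (1.54 ± 0.20 SE, limma adjusted p = 0.00817), kept its call without any 1 array, and differed by 0.02 in si-Med23 (adjusted p = 0.946). The difference between si-Med23 and si-Elk1 was -1.52 ± 0.20 (adjusted p = 0.00531).

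CHGA, chromogranin A, rose in both knockdowns. Its log2 signals were 7.12, 6.74 and 6.67 in si-Med23, 7.18, 7.13 and 7.09 in si-Elk1, and 6.42, 5.50 and 5.80 in si-Ctrl, where 2 arrays were under the filter level. CHGA was 0.94 ± 0.23 higher in si-Med23 (limma adjusted p = 0.0133), a direction that turned to -0.67 with poly-A spike scaling, and the call was lost with hybridization control scaling (0.44, adjusted p = 0.199). In si-Elk1 it was 1.23 ± 0.23 higher (adjusted p = 0.0262), and the call was lost without any of si-Ctrl arrays 2 and 3 or the 3 si-Elk1 arrays, at adjusted p from 0.0630 to 0.0952. The other tested granins did not pass in either knockdown. SCG5, a chaperone of the convertase PCSK2, stood at 0.86 and -0.21 in si-Med23 and si-Elk1. PCSK1N, an inhibitor of the convertase PCSK1, stood at 0.40 and 0.54. GNAS, whose locus also encodes a granin-like protein, stood at 0.23 and 0.22 on its brightest probe set. Its probe sets above the filter level ran from -0.91 to 0.46 in si-Med23 and from -0.53 to 0.42 in si-Elk1. Which product of the locus each reads was not tested. SCG3 and VGF were under the filter and were not tested.

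Neither G protein-coupled neurotensin receptor was bright on these arrays. NTSR1, the high-affinity receptor, ran from log2 3.04 to 4.86 over the 9 arrays and NTSR2 from 1.85 to 2.72, all under the filter level. SORL1, a sorting receptor that binds neurotensin, was brighter (log2 8.48 to 9.27), was tested and differed by -0.23 in si-Med23 (limma adjusted p = 0.300) and 0.03 in si-Elk1 (adjusted p = 0.917). Signals as dim as those of NTSR1 and NTSR2 give no order between groups. Of 4 receptors listed, 3 had a probe set of their own, and the other was not analysed here.

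Enzymes that mature peptide precursors came next in the pathway, and 12 of 15 listed had a probe set of their own here. Of the 11 tested, 3 rose and 1 fell in si-Med23, or 0 and 7 with poly-A spike scaling. In si-Elk1 0 passed (limma, 2 at an unadjusted p under 0.05). Their medians were 0.66 in si-Med23 and 0.25 in si-Elk1, beside 0.09 and 0.05 over all genes. QPCT, which forms the pyroglutamate at the start of neurotensin, rose by 0.92 ± 0.19 (limma adjusted p = 0.00781), CPE, which trims basic residues, by 1.19 ± 0.31 (adjusted p = 0.0167) and PAM, which amidates peptide ends, by 0.51 ± 0.15 (adjusted p = 0.0270), and with poly-A spike scaling they stood at -0.69, -0.42 and -1.10. CPD, another trimming carboxypeptidase, fell, with a log2 fold change of -1.09 ± 0.32 (adjusted p = 0.0259). All 3 that rose were also higher in si-Med23 than in si-Elk1, by 0.67 for QPCT, 1.17 for CPE and 0.56 for PAM. With poly-A spike scaling QPCT and PAM stood at -0.30 and -0.41 there, and CPE at 0.20 with its call lost (limma adjusted p = 0.638). Hybridization control scaling also lost the 3 calls (adjusted p from 0.0804 to 0.280). Those 3 calls were lost without oligo A or C against MED23 or oligo A or B against ELK1, and for QPCT and CPE also without oligo C against ELK1 (adjusted p from 0.0517 to 0.103). In si-Med23 the call of CPE was lost without si-Ctrl 2, oligo A or oligo C (adjusted p from 0.0525 to 0.0541). That of CPD was lost without si-Ctrl 2, si-Ctrl 3, oligo A or oligo B (0.0554 or more), and that of PAM without any array but oligo B (0.0526 to 0.0878).

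Of the peptidases that degrade neurotensin and like peptides, 7 of 11 listed were tested, and 3 rose and 1 fell in si-Med23, or 0 and 7 with poly-A spike scaling. In si-Elk1 0 passed (limma, 3 at an unadjusted p under 0.05). Their medians were 0.53 in si-Med23 and 0.36 in si-Elk1. NLN, neurolysin, which cleaves neurotensin, fell in si-Med23 (-0.74 ± 0.16, limma adjusted p = 0.00873). RNPEP, an aminopeptidase, rose by 0.58 ± 0.14 (adjusted p = 0.0119) and PREP, prolyl endopeptidase, by 0.68 ± 0.17 (adjusted p = 0.0139), both turning negative with poly-A spike scaling, at -1.03 and -0.93. ECE1, endothelin-converting enzyme, rose by 0.58 (adjusted p = 0.0378) and stood at -1.03 with that scaling. The call of PREP was lost without si-Ctrl 3 (adjusted p = 0.0553), and that of ECE1 without si-Ctrl 1, si-Ctrl 3, oligo B or oligo C (0.0913 to 0.129).

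Of 32 genes of regulated exocytosis listed, 21 were tested, and their medians were 0.37 in si-Med23 and 0.17 in si-Elk1. In si-Med23 7 rose and 1 fell, or 0 and 18 with poly-A spike scaling. In si-Elk1 2 rose and 0 fell, or 1 and 5 with that scaling, and 5 were higher and 2 lower in si-Med23 against si-Elk1. SNAP25, a membrane fusion (SNARE) protein of vesicle release, had log2 signals of 8.96, 8.07 and 9.07 in si-Med23, 11.36, 11.54 and 11.38 in si-Elk1, and 8.88, 8.98 and 8.66 in si-Ctrl. The si-Elk1 arrays stood apart from both other groups. SNAP25 rose in si-Elk1 by 2.58 ± 0.25 (limma adjusted p = 0.00306), with at least 1.10 on each of its 2 dimmer probe sets. In si-Med23 it differed by -0.14 on its brightest probe set (limma adjusted p = 0.669), while the 2 dimmer ones gave -0.53 and -1.14. SNAP25 was lower in si-Med23 than in si-Elk1 (-2.72 ± 0.25, limma adjusted p = 0.00175). RAB3D, a GTPase of secretory vesicles, rose in si-Elk1 by 0.89 ± 0.16 (adjusted p = 0.0240), and that call was lost without any 1 of the 6 arrays (0.0571 to 0.0822).

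In si-Med23 the vesicle genes with the smallest p were VAMP2, a vesicle SNARE, at 1.19 ± 0.15 (limma adjusted p = 0.00202), SYTL5, an effector of RAB27, at 1.96 ± 0.38 (adjusted p = 0.00601), HID1, a dense-core vesicle factor, at 0.63 ± 0.13 (adjusted p = 0.00804) and RAB27A, a vesicle docking GTPase, at 0.55 ± 0.13 (adjusted p = 0.0124). With poly-A spike scaling VAMP2, HID1 and RAB27A turned to -0.42, -0.98 and -1.06, and SYTL5 was at 0.35 with its call lost (adjusted p = 0.445). SYTL5 was also higher in si-Med23 than in si-Elk1, by 2.44 ± 0.38 (adjusted p = 0.00750), as was VAMP2, by 0.83 ± 0.15 (adjusted p = 0.0108), though VAMP2 stood at -0.14 with poly-A spike scaling. In si-Elk1 SNAP25 was at 1.94 with poly-A spike scaling and at 1.73 as the mean of its probe sets. Without probe sets ending in _x_at or _s_at it was at 1.504 and its call was lost (adjusted p = 0.0963). Without those probe sets VAMP2 was at 0.39 in si-Med23 (adjusted p = 0.203) and at 0.20 in si-Med23 against si-Elk1 (adjusted p = 0.531).

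**Figure D3:**
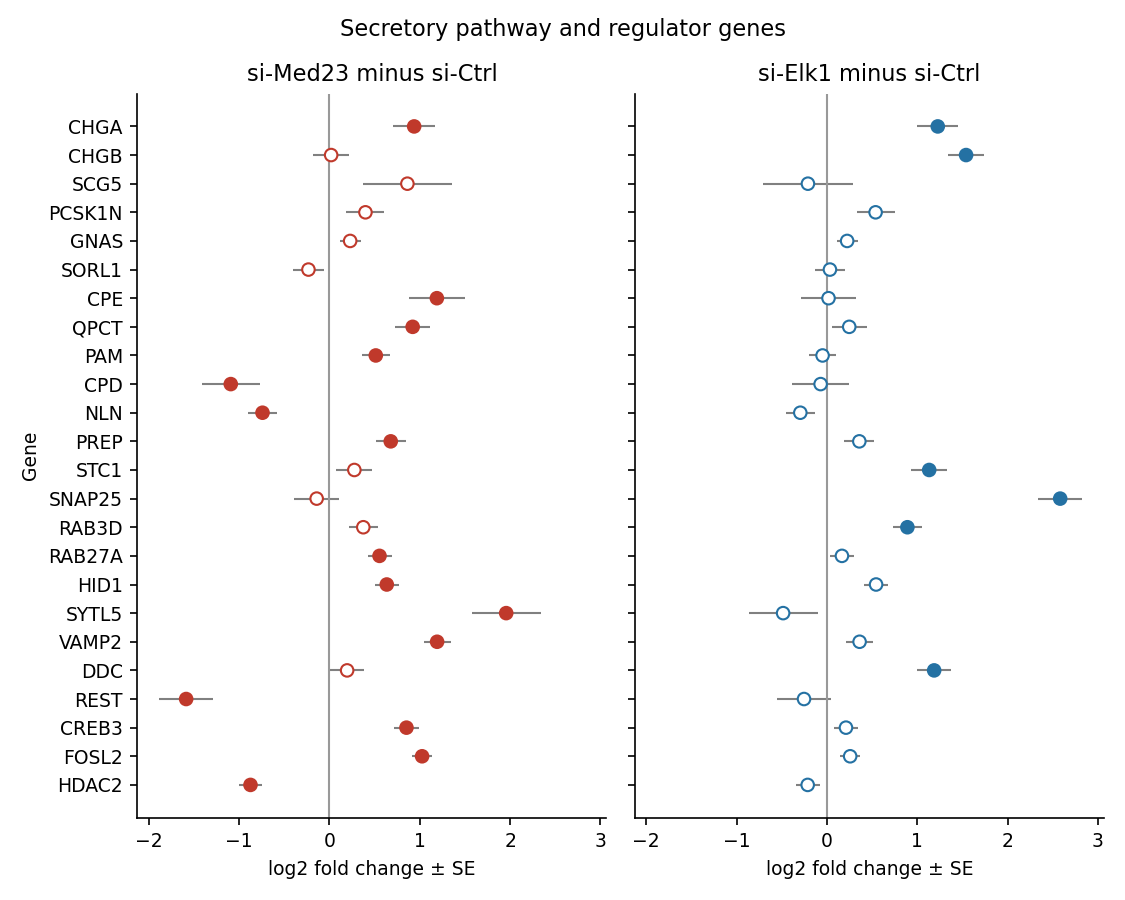
Log2 fold change ± SE of 24 granin, receptor, processing, peptidase, hormone, exocytosis, neuroendocrine and regulator genes in si-Med23 (left) and si-Elk1 (right) against si-Ctrl. Filled points passed a limma adjusted p of 0.05. SNAP25, CHGB, CHGA, DDC, STC1 and RAB3D are filled on the right. Of the 11 filled rises on the left, all but SYTL5 are below 0 under poly-A spike scaling, and SYTL5 loses its call.

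Other peptide hormone precursors were mostly dim. Of 66 listed, 21 were tested, with medians of 0.44 in si-Med23 and 0.54 in si-Elk1. In si-Med23 4 rose and 2 fell, or 0 and 17 with poly-A spike scaling. In si-Elk1 1 rose and 0 fell, or 0 and 4 with that scaling, and 1 was higher and 3 lower in si-Med23 against si-Elk1. STC1, stanniocalcin 1, rose in si-Elk1 by 1.13 ± 0.20 (limma adjusted p = 0.0216), a call kept only without oligo C against ELK1 (otherwise 0.0521 to 0.0822). In si-Med23, EDN2, endothelin 2, rose by 1.73 ± 0.43 (adjusted p = 0.0136), with 2 of its 3 controls under the filter level, but with poly-A spike scaling it was at 0.12 (adjusted p = 0.804). NMB, neuromedin B, rose by 0.87 ± 0.21 (adjusted p = 0.0120) but stood at -0.74 with poly-A spike scaling.

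Among transcription factors and corepressors known to act on promoters of this kind, 24 of 26 listed were tested. In si-Med23 4 rose and 6 fell, or 0 and 23 with poly-A spike scaling, with a median of -0.02. In si-Elk1 0 passed (limma, 6 at an unadjusted p under 0.05), with a median of -0.05, and in si-Med23 against si-Elk1 3 were higher and 4 lower. FOSL2, an AP-1 subunit, rose in si-Med23 by 1.03 ± 0.11 (limma adjusted p = 0.00184) and CREB3, a CREB family factor, by 0.85 ± 0.13 (adjusted p = 0.00300), and with poly-A spike scaling they stood at -0.58 and -0.76. HDAC2, a histone deacetylase of corepressor complexes, fell, at -0.87 ± 0.13 (adjusted p = 0.00276). REST, a repressor of neuronal genes that include SCG2, fell on its brightest probe set, at -1.59 ± 0.30 (adjusted p = 0.00558). The dimmer probe sets of REST gave 0.91 and -0.58, and the mean of all 3 gave -0.42. Both dimmer ones had a mean under the filter level (log2 5.58 and 5.07), so the fall of REST rests on 1 probe set. In si-Elk1 REST stood at -0.25 (adjusted p = 0.621).

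Markers of neuroendocrine cells, which make granins and peptide hormones, were followed because SCG2, CHGA and CHGB are also used to recognise such cells. Of 15 listed, 13 had a probe set of their own and 7 were tested, with medians of 0.15 in si-Med23 and 0.39 in si-Elk1. In si-Med23 2 rose and 0 fell, or 0 and 6 with poly-A spike scaling, in si-Elk1 3 rose and 0 fell, or 2 and 0, and in si-Med23 against si-Elk1 1 was higher and 3 lower. Their summed signal was 22539 to 26804.7 in si-Med23, 18019.4 to 21441.2 in si-Elk1 and 15199 to 16656.9 in si-Ctrl. Most of that sum was UCHL1. The other 12 summed to 2331.5 to 2502.9 in si-Med23, 3230.3 to 3905.6 in si-Elk1 and 2159.9 to 2433.5 in si-Ctrl, above both other groups in si-Elk1. Those 12 include CHGB, at a mean log2 of 9.41 in si-Elk1 and 7.87 in si-Ctrl. The 3 that rose in si-Elk1 were CHGA, CHGB and DDC, and CHGA and CHGB are already counted among the granins, so the 2 lists are not separate results. INSM1, SYP, CALCA, GRP, POU2F3 and NKX2-2 were under the filter level. DDC, dopa decarboxylase, rose in si-Elk1 by 1.19 ± 0.19 (limma adjusted p = 0.0163), a call lost without si-Ctrl 1 (0.0560) or si-Ctrl 3 (0.0671), and was lower in si-Med23 than in si-Elk1 by a log2 fold change of -0.99 ± 0.19 (adjusted p = 0.0118). UCHL1, a neuronal deubiquitinase, rose in si-Med23 by 0.68 ± 0.12 (adjusted p = 0.00474), and stood at -0.93 with poly-A spike scaling and at -0.11 without probe sets ending in _x_at or _s_at.

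Markers of the lung epithelial lineage were bright on all arrays, as the label A549 implies. All 11 with a probe set of their own were tested. In si-Med23 8 rose and 0 fell, or 0 and 8 with poly-A spike scaling, in si-Elk1 1 rose, or 0 with 3 falling, and 4 were higher in si-Med23 than in si-Elk1. Their summed signal was 194258 to 245924.7 in si-Med23, 168024.4 to 204197.9 in si-Elk1 and 152025.8 to 168887.3 in si-Ctrl. Markers of blood, endothelial and fibroblast cells summed to 2060.5 to 3121.8 in si-Med23, 1786.9 to 2266 in si-Elk1 and 958.3 to 1518.6 in si-Ctrl. Without COL1A1, the brightest of them, they summed to 396.6 to 570.6 in si-Med23, 716.8 to 895.8 in si-Elk1 and 372.8 to 881.5 in si-Ctrl. Of these 12, 9 had a probe set and 4 were tested, and COL1A1, a collagen chain, rose in si-Med23 on its brightest probe set (1.76 ± 0.19, limma adjusted p = 0.00184). That call was lost with poly-A spike scaling (0.15, adjusted p = 0.547) and with the mean of its probe sets (0.67, adjusted p = 0.288), and its next brightest probe set gave -0.06. COL1A1 also rose in si-Elk1 (0.95, adjusted p = 0.0318), a call lost without any 1 of the 6 arrays (0.0609 to 0.0951) and with its probe sets averaged (0.13, adjusted p = 0.898). PTPRC, the pan-leukocyte marker, was under the filter level. The part of any of these marker lists in the values of NTS and SCG2 was not tested.

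Over the 9 arrays the log2 signals of NTS and SCG2 had a Pearson correlation of 0.954. The 9 points share 3 groups, so this number mostly repeats the order of the group means, and it is given as a description. Among the other genes tested, SCG2 had the 22nd highest correlation with NTS, and NTS the 7th highest with SCG2. The pattern nearest to that of NTS was found in DIXDC1 (r = 0.992), a Wnt pathway protein, MYL12B (0.987), a myosin light chain, ATP10B (0.984), a lipid flippase, ABCG2 (0.984), a drug efflux pump, and CNEP1R1 (0.979). Their differences from the control were far smaller than those of NTS, from -0.59 to -0.13 in si-Med23 and from 0.13 to 0.81 in si-Elk1. The most opposite patterns were those of PEA15 (r = -0.989), an ERK-binding protein, CORO1C (-0.984), an actin-binding protein, and JPT2 (-0.983).

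For SCG2 the nearest patterns were those of PIGF (r = 0.967), RTN4RL2 (0.965), a Nogo receptor homologue, CATSPERZ (0.965), KCNJ2 (0.964), a potassium channel, and FBXO21 (0.961). RTN4RL2 differed by -1.84 in si-Med23 and 1.41 in si-Elk1, and its si-Med23 arrays ran from log2 5.48 to 7.65, 1 of them under the filter level. SCG2 itself stood at -0.94 and 1.48, so RTN4RL2 differed more in si-Med23 and slightly less in si-Elk1. JPT2 (-0.983), PEA15 (-0.978) and C12orf75 (-0.975) had the most opposite patterns to SCG2, and JPT2 and PEA15 were among the most opposite to both members.

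**Figure D4:**
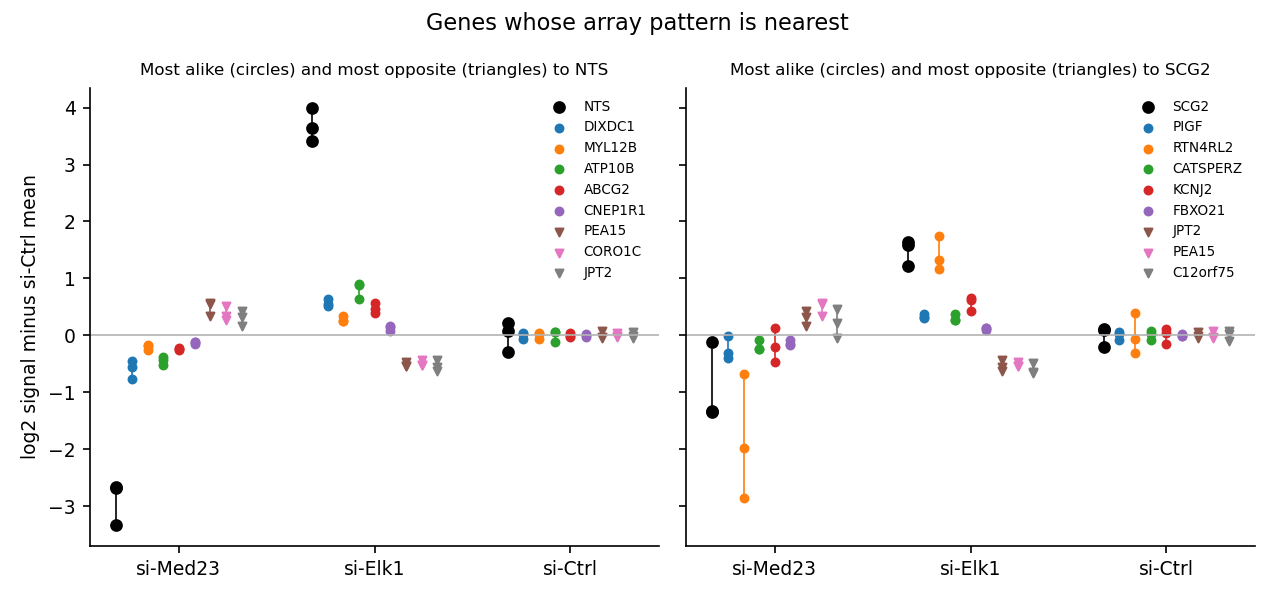
Log2 signal minus the si-Ctrl mean on each array for NTS (left) and SCG2 (right), in black, with the 5 genes of highest (circles) and the 3 of lowest (triangles) Pearson correlation over 9 arrays. Points are arrays and lines span the 3 arrays of a group. The neighbours of NTS stay within 1 log2 unit of the control, while RTN4RL2 reaches lower than SCG2 in si-Med23.

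Calls of several genes named above also rested on the setting. With hybridization control scaling the si-Med23 calls of CHGA, QPCT, CPE, PAM, RNPEP, PREP, ECE1, HID1, RAB27A, EDN2, NMB, CREB3 and UCHL1 and the si-Elk1 calls of CHGA, RAB3D, STC1 and COL1A1 were lost. With poly-A spike scaling CHGA was at 0.59, RAB3D at 0.25 and STC1 at 0.49 in si-Elk1, none of them called. With all probe sets of a gene averaged, the si-Med23 calls of CPD, CPE, PAM, NLN, PREP, ECE1, HID1, RAB27A, REST and UCHL1 and the si-Elk1 call of DDC were lost. With no filter the si-Elk1 calls of CHGA, DDC, RAB3D, STC1 and COL1A1 were lost, as were those of CPD, PAM and ECE1 in si-Med23.

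The arrays had been scaled to a common trimmed mean, and the size of both members' differences depended on that step. Scaled on the poly-A spikes, the log2 values of si-Med23 shifted by -1.61 and those of si-Elk1 by -0.64 relative to si-Ctrl. NTS then stood at -4.50 in si-Med23 and 3.04 in si-Elk1, and SCG2 at -2.55 and 0.84. Over the 13 settings tried, NTS ranged from -4.50 to -2.61 in si-Med23 and from 3.04 to 3.75 in si-Elk1. Over the 12 settings in which it could be measured, SCG2 ranged from -2.55 to -0.70 in si-Med23 and from 0.84 to 1.49 in si-Elk1. Relative to the shift of all genes, the differences of both members were the same under any scaling that adds 1 value to each array.

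**Figure D5:**
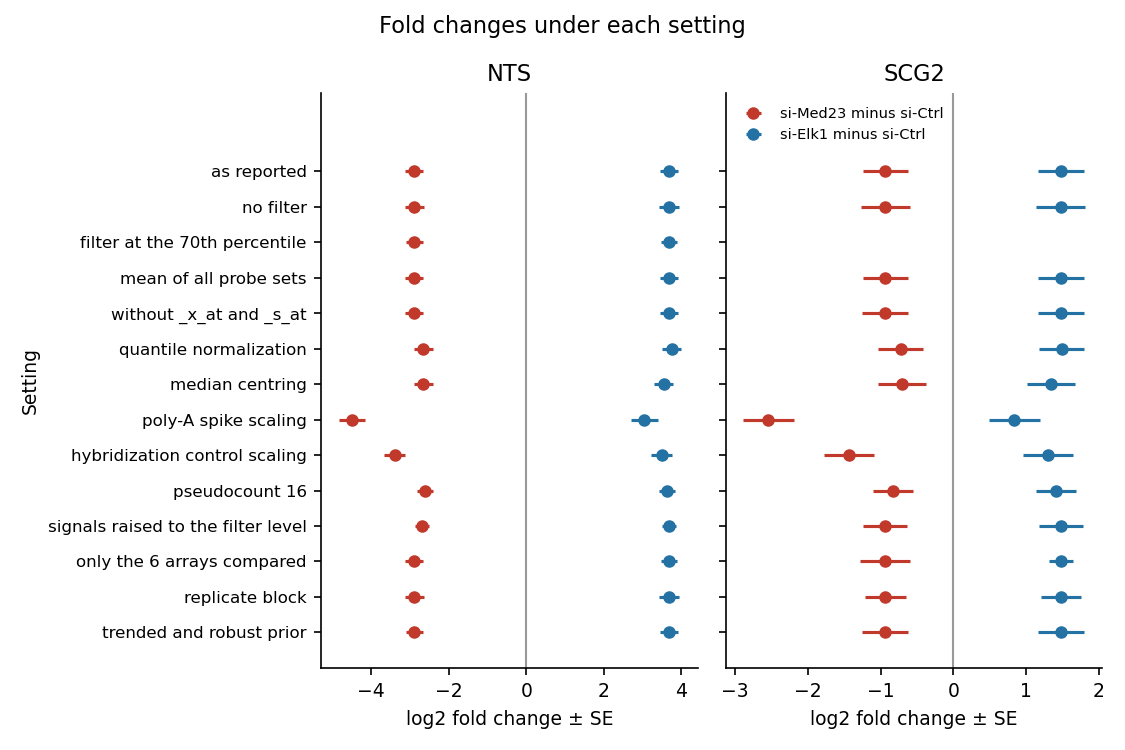
Log2 fold change ± SE of NTS (left) and SCG2 (right) in si-Med23 and si-Elk1 against si-Ctrl as reported and under each other setting. All si-Med23 points lie below 0 and all si-Elk1 points above 0. SCG2 has no point at the 70th percentile filter, since its mean signal is under that level.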

How the data were processed

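RNA of 9 A549 samples was measured on Affymetrix arrays, and groups and replicate numbers come from the labels. The authors deposited 1 intensity for each probe set and array, not on a log scale. RMA and MAS5 are named, per the submitters' processing notes, without saying which step used them, and the sources used here give no genome build. The trimmed mean was near 500 on each array, and such scaling removes any change in total messenger RNA.

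Signals were analysed as log2(value + 1). Of 54675 probe sets, 41097 had 1 annotated gene, 1801 several and 11721 none named, and 62 control probe sets were left out. The brightest probe set stood for a gene, and genes whose mean lay in the lower 50% of probe sets (under log2 6.05) were dropped, which left 12616 of 19775. limma 3.58.1 (R 4.3.3; lmFit, eBayes, 9 arrays, 3 groups) gave fold changes and Benjamini-Hochberg adjusted p-values over all genes tested, with a threshold of 0.05. The fit was tested on simulated data. 0 array pairs held identical values.

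The members and gene lists were chosen with earlier results of these data known. Genes picked for naming besides the members were MED23, ELK1, every granin and receptor with a probe set, up to 4 called genes of smallest p in each other list and comparison, the 5 highest and 3 lowest correlations with each member, and neighbours in rank. Some of those picked are not printed above. Each result was recomputed under 22 alternatives: other filters, probe set rules, scalings, pseudocount, prior, sample sets and a replicate block, and without each array in turn.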

Additional observations from a re-analysis of the deposited data

How the results depend on the processing

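Signals of dim probe sets are uncertain, no detection calls were used, and 3 arrays a group limit the precision of each value. The first comparison here is si-Med23 over control, the second si-Elk1 over control and the third si-Med23 over si-Elk1. NTS and SCG2 kept their direction in all 3 under every alternative in which they could be measured, and SCG2 could not be measured at the 70th percentile filter. Of 75 member values under other settings, 64 moved by less than the spread between replicates and 11 by more. Many of the 64 could not move, since each member has 1 probe set and each value is a difference of group means. Changing the filter, the probe set rule, the prior or the replicate block, or fitting only the 6 arrays compared, left them exactly as reported. With poly-A spike scaling NTS stood at -4.50, 3.04 and -7.54 and SCG2 at -2.55, 0.84 and -3.38. With hybridization control scaling NTS stood at -3.39 in the first comparison and -6.89 in the third, and SCG2 at -1.43 in the first. In the third, NTS stood at -6.21 with median centring and -6.25 with a pseudocount of 16. Leaving out 1 array, NTS ranged from -3.04 to -2.67, 3.53 to 3.81 and -6.70 to -6.35, and SCG2 from -1.34 to -0.73, 1.37 to 1.61 and -2.82 to -2.21.

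Counts of called genes depended more on the processing. They were 5023 (2561 higher, 2462 lower), 537 (387 and 150) and 2739 (1204 and 1535) as reported, and 6348, 3162 and 5009 genes had an unadjusted p under 0.05. Poly-A spike scaling gave 11898 (18 and 11880), 4993 (95 and 4898) and 10252 (33 and 10219), since it shifted all genes by -1.61, -0.64 and -0.97. Hybridization control scaling, a shift of -0.50, -0.18 and -0.32, split the calls into 409 and 5205, 166 and 258, and 359 and 3943 (4302 in all). Median centring, a shift of 0.23, -0.13 and 0.37, split them into 4758 and 1681, 239 and 326, and 4685 and 553 (5238 in all). In the second comparison there were 119 without a filter, 937 at the 70th percentile filter, 271 with a gene's probe sets averaged, 318 without probe sets ending in _x_at or _s_at, 855 with signals raised to the filter level and 1064 with a trended and robust prior. In the third there were 979 without a filter, 1783 with probe sets averaged and 1074 with only the 6 arrays compared. Leaving out 1 array gave 3174 (si-Ctrl 3) to 4141 (oligo C against MED23) in the first, 109 (si-Ctrl 3) to 265 (oligo C against ELK1) in the second and 769 (oligo A against ELK1) to 4496 (oligo C against ELK1) in the third. The causes of these moves, other than fewer arrays or genes and the scaling shifts, were not tested.

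The replicate numbers do not pair the arrays. Deviations of same-numbered arrays from their group means correlated at -0.176 to 0.046. With the replicate block 4109, 162 and 1319 genes were called. The block cannot move a fold change here, since every group holds each replicate number.

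Some directions of other genes turned. In the first comparison, poly-A spike scaling gave CCK -0.78, CDH1 -0.42, CHGA -0.67, CPE -0.42, CREB3 -0.76, ECE1 -1.03, FOSL2 -0.58, GATA6 -0.56, HID1 -0.98, KRT8 -0.81, NMB -0.74, PAM -1.10, PREP -0.93, QPCT -0.69, RAB27A -1.06, RNPEP -1.03, UCHL1 -0.93 and VAMP2 -0.42. In the third it gave APLN -0.26, COL1A1 -0.16, CREB3 -0.33, FOSL2 -0.20, KRT8 -0.27, PAM -0.41, QPCT -0.30, SYTL4 -0.20, UCHL1 -0.50 and VAMP2 -0.14. UCHL1 in the first comparison was also at -0.11 without probe sets ending in _x_at or _s_at. MED23, ELK1 and the list genes picked for naming, printed or not, had 989 values under other settings. Of these, 771 kept direction and side of the threshold and 29 turned.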
